A study of Mus musculus with 21 samples.

Results

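Hedgehog signalling in the developing mouse lung was followed through 9 genes, the ligand Shh, its receptor Ptch1, the co-receptors Gas1 and Boc, the ligand-binding antagonist Hhip, the signal transducer Smo and the transcription factors Gli1, Gli2 and Gli3. The members were the rows carrying those 9 symbols in the per-library expression tables of lung epithelial cells and lung fibroblasts. All 9 were listed in both cell types, out of 25035 genes listed in either. Lungs came from C57BL/6 mice carrying a Col1a2-GFP transgene, in which the promoter of a collagen gene drives a green fluorescent protein that marks fibroblasts, and every library of both cell types came from such mice. Sorted epithelial cells were negative for CD31, CD45, Ter119, CD146, propidium iodide and GFP and positive for Epcam. Fibroblasts were negative for the same lineage markers, propidium iodide and Epcam and positive for GFP. The label of the E18.5 epithelial libraries names no GFP gate. The labels name no treatment, and the fibroblasts analysed are those in which the Col1a2 promoter is active.

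Each cell type was sampled at embryonic day 18.5 (E18.5) and postnatal days 0.5 (P0.5), 2 (P2), 7 (P7) and 28 (P28) with 2 libraries per stage, and fibroblasts also at P56 with 1 library, 21 libraries in all. Transcripts were counted by 3'SAGE-seq, in which poly(A) RNA is amplified and 1 tag close to a transcript's 3' end is sequenced. The deposited value of a gene is its tag count divided by 1 factor per library. Recovered depth was 2146071 to 5729829 reads per library, so that 1 read was worth 0.134 to 0.456 value units and a count of 0 allowed up to 3 reads, or 0.403 to 1.37 units. Reads carry no molecular identifiers, so these limits cover counting error only. The labels number the replicates but do not say that they are separate animals, and the p-values below therefore reflect the spread between these libraries alone, and that spread may be technical. In sorted cell pools, fewer cells of a type and less RNA per cell cannot be told apart.

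The libraries matched their sort gates by marker genes. Summed values of 10 epithelial markers were 31080 to 40970 in the epithelial libraries and 13.2 to 224 in the fibroblast libraries, where 9 of the 10 were listed. Summed values of 10 fibroblast markers were 13900 to 46053 in fibroblasts and 167 to 2390 in epithelium. The leukocyte list, of which 5 of 6 genes were listed, reached 1103 to 1290 in the epithelial libraries at P28, against 0.56 to 389 in the other epithelial libraries. At P7 its genes Ptprc, Fcer1g and Coro1a were at 0 in both epithelial libraries.

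In hedgehog signalling a secreted ligand binds Ptch1 and so relieves the inhibition that Ptch1 exerts on Smo, a membrane protein that acts through the primary cilium. Active Smo lets Gli2 and Gli3 work as transcriptional activators rather than being cut into repressors, and Gli1, Ptch1 and Hhip are themselves classical targets of the pathway. In the embryonic lung the ligand Shh is made by the epithelium and acts on the surrounding mesenchyme, where it is needed for branching and for smooth muscle. Gas1 and Boc bind the ligand at the cell surface and help present it to Ptch1, while Hhip binds the ligand and holds it back.

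On the GRCm38 assembly Shh lies at chr5:28456815-28467256 on the minus strand, Ptch1 at chr13:63508328-63573598 (minus) and Smo at chr6:29735503-29761365 (plus). Hhip lies at chr8:79965851-80058006, Gas1 at chr13:60174405-60177365 and Boc at chr16:44485049-44558897, all on the minus strand. Gli1 lies at chr10:127329882-127341974 (minus), Gli2 at chr1:118834132-119053619 (minus) and Gli3 at chr13:15463235-15730026 (plus). Where tags are read, at the 3' end, only Gli1 is overlapped by another annotated gene, Arhgap9 on the opposite strand over 62 bases, and Arhgap9 had 4 reads over the epithelial and 2 over the fibroblast libraries. A noncoding gene, 9530036O11Rik, runs antisense to Shh without reaching its 3' end and had 36 reads over the epithelial libraries.

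RefSeq promoter windows (GRCm38.p6) were at hand for 6 of the 9 genes. The 250 bases before the start of Gli2, Hhip and Gas1 are shown, since among those 6 genes they differed most between the cell types. They are written 5' to 3' along the gene, and all 3 genes are on the minus strand. In Gli2 (chr1:119053620-119053869) capitals mark ACCACCC, the core of the Gli binding site, here read on the other strand as GGGTGGT. In Hhip (chr8:80058009-80058258) and Gas1 (chr13:60177536-60177785) capitals mark the GC box GGGCGG, read on the other strand as CCGCCC.
Gli2: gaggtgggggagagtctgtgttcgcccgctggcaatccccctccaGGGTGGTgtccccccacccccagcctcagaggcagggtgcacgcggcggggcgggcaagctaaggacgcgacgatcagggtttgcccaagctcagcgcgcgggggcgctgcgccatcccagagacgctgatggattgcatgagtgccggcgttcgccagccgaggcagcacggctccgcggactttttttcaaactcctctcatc
Hhip: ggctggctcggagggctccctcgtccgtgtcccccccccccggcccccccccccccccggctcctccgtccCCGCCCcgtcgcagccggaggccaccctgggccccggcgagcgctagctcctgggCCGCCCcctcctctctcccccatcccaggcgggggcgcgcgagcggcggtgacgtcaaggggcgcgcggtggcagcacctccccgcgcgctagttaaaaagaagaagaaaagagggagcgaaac
Gas1: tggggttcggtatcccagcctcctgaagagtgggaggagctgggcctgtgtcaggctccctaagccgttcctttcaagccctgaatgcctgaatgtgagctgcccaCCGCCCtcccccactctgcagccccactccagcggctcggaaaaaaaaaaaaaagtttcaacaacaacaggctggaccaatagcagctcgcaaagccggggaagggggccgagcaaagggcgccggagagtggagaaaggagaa
The full Gli site GACCACCCA, searched on both strands, was in 0 of the 6 windows and in 0.225% of 32851 mouse promoter windows of the same length. Its core ACCACCC, which the full site contains, was in the window of Gli2 and in 3.92% of all windows. The GC box was in the windows of Ptch1, Gli2, Gli3, Hhip and Gas1 but not of Smo, and in 32.7% of all windows. These matches describe the letters in these windows and are no sign that a factor binds there.

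The ligand Shh and the other members were split between the 2 cell types. Shh was the one member higher in epithelium, and the other 8 were higher in fibroblasts. For this comparison reads were recovered from the deposited values, scaled together and expressed as joint CPM, that is counts per 1000000 reads after TMM scaling over the 20004 genes in both sets of tables, in the 10 libraries of each cell type from E18.5 to P28. By limma, with p-values adjusted over 13386 genes, 9 of 9 members passed, 1 higher and 8 lower in epithelium, while 62.4% of all genes tested passed, 32.5% higher and 29.9% lower. Of these, Gli1, Gli2, Gas1 and Boc passed the filter on low values through their fibroblast levels alone and so had to differ, and their values are a description. The median difference of the members was -3.24 on the log2 scale, against 0.01 over all genes. That median is the value of Gas1, which had to differ, so it too is a description. Shh averaged 652 joint CPM ± 312 in epithelium and 2.99 ± 3.71 in fibroblasts (SD over 10 libraries each). The log2 difference was 7.58 (SE 0.21, limma adjusted p = 3.59e-18), and every epithelial library lay above every fibroblast library.

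Hhip, Gli1, Gli2 and both co-receptors had few or no reads in the epithelial libraries. Hhip averaged 1.78 joint CPM ± 2.16 in epithelium and 228 ± 84.1 in fibroblasts (SD, n = 10), a log2 difference of -6.60 (SE 0.21, limma adjusted p = 4.67e-17). Gli1, the transcription factor most often used as a readout of the pathway, had 5 reads over all 10 epithelial libraries, 4 of them in P2 replicate 1, against 29.5 joint CPM ± 17.0 in fibroblasts. Gli2, the main activator, had 16 epithelial reads, 12 of them in E18.5 replicate 2, against 36.0 joint CPM ± 10.6 in fibroblasts. Of the 2 co-receptors, Boc had 9 epithelial reads and Gas1 had 3, against 18.3 ± 3.78 and 11.3 ± 8.34 joint CPM in fibroblasts. Log2 differences of these 4 genes ran from -4.81 for Gli2 to -3.24 for Gas1, and since the scale adds 1 to each value these understate the change of genes so close to 0. These 4 genes did not pass the filter on low values in the epithelial tables and were not tested there across stages.

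Ptch1, Smo and Gli3 were read in every library of both cell types, but Gli3 was low in epithelium. It had 85 reads over the 10 epithelial libraries. Of these, P0.5 replicate 1, P2 replicate 1 and P28 replicate 2 held 2 reads each, within the 3 reads that a count of 0 allows. Ptch1 averaged 19.1 joint CPM ± 7.41 in epithelium and 57.8 ± 13.0 in fibroblasts (SD, n = 10), a log2 difference of -1.63 (SE 0.12, limma adjusted p = 7.79e-11). Smo averaged 4.08 ± 1.98 and 9.93 ± 3.66 joint CPM, a log2 difference of -1.11 (SE 0.19, limma adjusted p = 3.37e-05). Gli3, whose cut form is the main repressor of the pathway, averaged 2.30 ± 1.41 and 5.99 ± 2.67 joint CPM, a log2 difference of -1.11 (SE 0.22, limma adjusted p = 0.00018).

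The epithelial level of each gene was also set beside what fibroblast markers showed in the same libraries. The 10 fibroblast markers stood in epithelium at 0.603% (Col3a1) to 5.46% (Vim) of their fibroblast level, with a median of 0.741%. Gli1 at 0.684%, Hhip at 0.780%, Gas1 at 0.973%, Gli2 at 1.28% and Boc at 1.47% lay within that range. Ptch1 at 33.1%, Gli3 at 38.4% and Smo at 41.1% lay above it. These shares pool the stages. In single stages the lowest were 19.7% for Ptch1 (P28), 14.2% for Gli3 (P2) and 24.5% for Smo (P0.5). Among the markers Vim reached 13.3% at P28, and Lum 64.8% at E18.5, where it averaged 1.27 joint CPM in epithelium and 1.96 in fibroblasts. In the other direction, Shh in fibroblasts stood at 0.458% of its epithelial level, inside the 0.0169% (Cdh1) to 1.44% (Krt19) of the 9 listed epithelial markers. By stage that share was 1.04% at E18.5, 0.397% at P0.5, 0.197% at P2, 0.161% at P7 and 0.201% at P28.

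**Figure D1:**
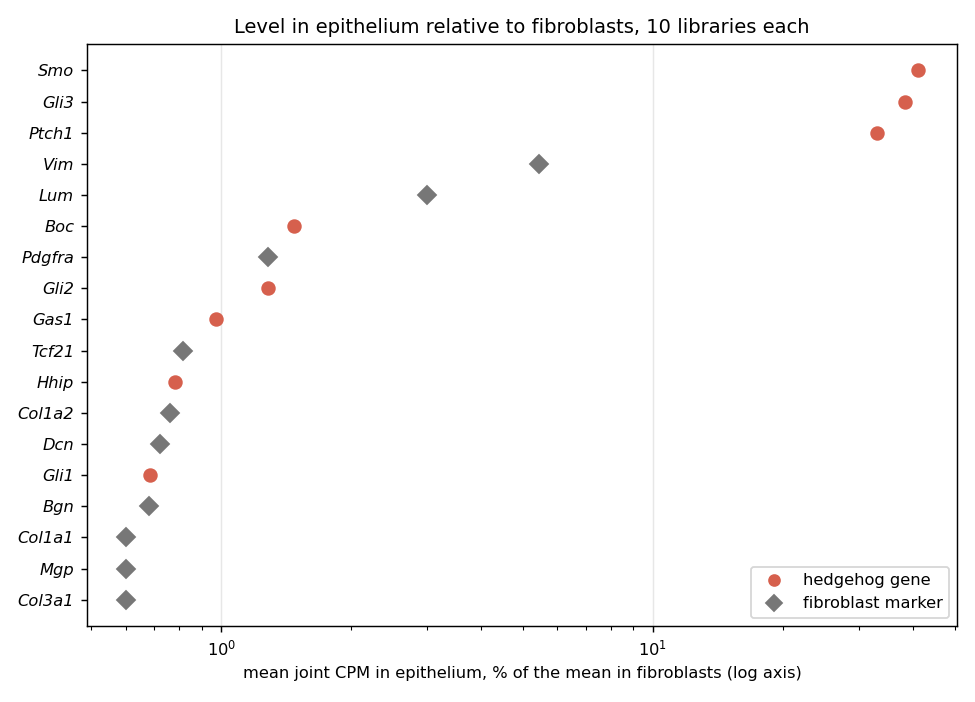
Mean joint CPM in 10 epithelial libraries as a percentage of the mean in 10 fibroblast libraries (log axis), for the 8 members higher in fibroblasts (circles) and 10 fibroblast markers (diamonds). With the stages pooled, Ptch1, Gli3 and Smo stand at 33.1% to 41.1%, above every marker, and the other 5 members stand among the markers.

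In the epithelium Shh stayed high from birth through the first postnatal week and was low at P28. Its deposited values in replicates 1 and 2 were 941 and 897 at E18.5, 833 and 532 at P0.5, 1027 and 1023 at P2, 757 and 548 at P7, and 156 and 152 at P28. Both P28 libraries lay below every earlier library, both P2 libraries lay above all others, and the P0.5 and P7 values overlapped. From P7 to P28 Shh fell by 2.06 on the log2(value + 1) scale (SE 0.21, limma adjusted p = 2.08e-05), and from E18.5 to P28 it fell by 2.57 (SE 0.21, limma adjusted p = 1.4e-06). Fold changes below are on that scale, with p-values adjusted over 12143 genes in epithelium and 11954 in fibroblasts. From P0.5 to P2 the Shh difference was 0.62 (SE 0.21, limma adjusted p = 0.0838) and from P2 to P7 it was -0.67 (SE 0.21, limma adjusted p = 0.101), and neither passed. The P0.5 to P2 difference passed once values were scaled to the library total, and the P2 to P7 difference passed in DESeq2. In the epithelial libraries at P28, where Shh was low, the leukocyte list stood at 1103 to 1290, above all earlier stages, and its part in the result was not tested. The fibroblast list stood at 2306 to 2390, most of it Vim, which averaged 2160 joint CPM at P28 and 121 at P7. The other genes of that list went both ways. Dcn, at 12.3 joint CPM at P28 against 1.86 at P7, and Mgp, at 4.60 against 0.221, were higher at P28. Col1a1, at 0.843 against 7.20, and Tcf21, at 0.138 against 2.61, were lower, as were Col1a2, Col3a1, Bgn and Pdgfra. The part of this list in the result was not tested. The epithelial list itself stood at 32016 to 33985 at P28 and at 40827 to 40970 at P7.

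Ptch1, which binds the ligand and is also induced by it, was low in epithelium at P28 as well. Its values were 21.7 and 34.4 at E18.5, 27.2 and 20.1 at P0.5, 21.4 and 18.1 at P2, 20.4 and 20.7 at P7, and 6.18 and 10.9 at P28. Both E18.5 libraries lay above those of P2 and P7 and overlapped P0.5, the stages from P0.5 to P7 overlapped each other, and both P28 libraries lay below all earlier ones. Ptch1 fell by 1.62 from E18.5 to P28 (SE 0.32, limma adjusted p = 0.00207). From P7 to P28 it fell by 1.22 (SE 0.32, limma adjusted p = 0.032), a call that did not hold in DESeq2, without the filter on low values, or when any 1 of 4 libraries was left out, where the highest adjusted p was 0.267.

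Over the epithelial steps, 2 of the 5 members tested passed from P7 to P28, both lower, where 7.28% of all genes passed and 2.41% were lower. From E18.5 to P28 the same pair passed, where 24.9% of all genes did and 11.3% were lower, and the median of the 5 members was -1.47 against 0.03 over all genes. The overall test for any stage difference passed for Shh (limma adjusted p = 3.45e-06) and Ptch1 (limma adjusted p = 0.00927), where 35.3% of genes passed. The other steps gave 0 of 5 by limma, where 14.3% of genes passed from E18.5 to P0.5, 8.82% from P0.5 to P2 and 3.71% from P2 to P7. At an unadjusted p under 0.05 those 3 steps held 2, 1 and 3 members, edgeR called 0 at each, and DESeq2 called 0, 0 and 1. Scaling to the library total moved the share of calls that were higher from 41.7% to 54.2% at the P2 to P7 step and from 54.4% to 64.8% between E18.5 and P28, where the median over all genes was then 0.15 and Shh and Ptch1 kept their direction.

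The remaining epithelial members were Smo, Gli3 and Hhip. Smo was 9.41 and 5.37 at E18.5 and 2.70 to 5.01 in the 8 later libraries, so that both E18.5 libraries lay above all later ones. Gli3 ranged from 0.576 to 4.30, with its extremes in P28 replicate 2 and P7 replicate 1. Hhip ranged from 0 to 6.49 with 55 reads in all, and its 2 libraries at E18.5, 6.49 and 0.316, spanned nearly the whole range. None of these 3 passed by limma at any epithelial step or from E18.5 to P28, where 4 of the 5 members had an unadjusted p under 0.05 and edgeR called 3, Hhip among them.

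**Figure D2:**
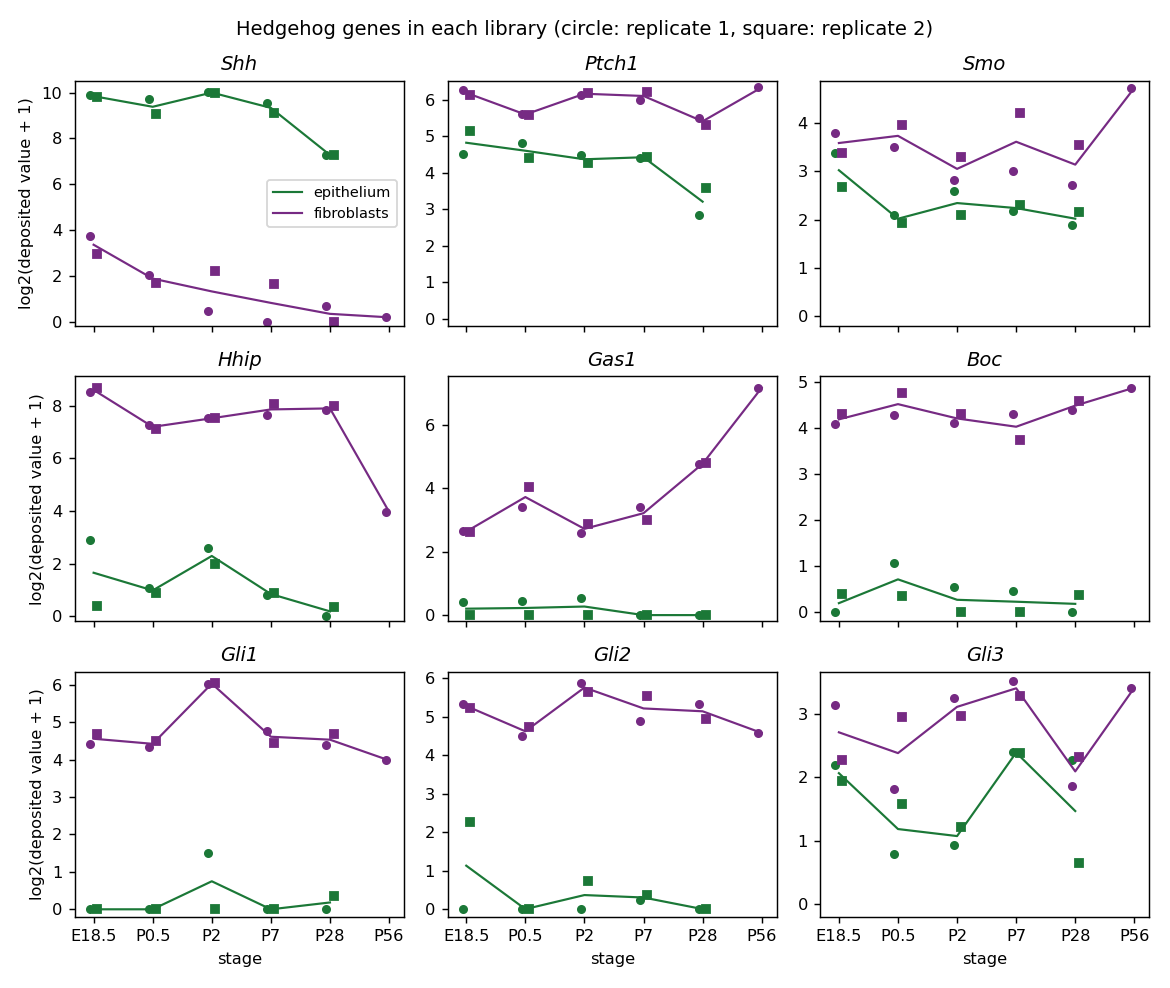
Deposited values of the 9 genes in every library on the log2(value + 1) scale against stage, with circles for replicate 1, squares for replicate 2 and lines through stage means (green epithelium, purple fibroblasts). Shh is high in epithelium until P7, Gli1 stands apart at P2 in fibroblasts, and Hhip and Gas1 move in opposite directions in the single P56 library.

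In fibroblasts the pathway's target Gli1 peaked at P2. Its values were 20.5 and 24.7 at E18.5, 19.2 and 21.7 at P0.5, 63.6 and 65.0 at P2, 26.3 and 20.9 at P7, 19.8 and 24.7 at P28, and 14.8 in the P56 library. Both P2 libraries lay above all 9 others, which overlapped among the stages from E18.5 to P28. Gli1 rose by 1.61 from P0.5 to P2 (SE 0.26, limma adjusted p = 0.000337) and fell by 1.42 from P2 to P7 (SE 0.26, limma adjusted p = 0.00225), and both calls held in every alternative and with each library left out.

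Gli2 moved with Gli1 at the first of these steps. Its values were 39.3 and 36.7 at E18.5, 21.7 and 25.8 at P0.5, 57.9 and 49.1 at P2, 28.6 and 45.9 at P7, 39.6 and 29.9 at P28, and 23.0 at P56. The P2 libraries were again the 2 highest and did not overlap with any other stage, but P7, E18.5 and P28 overlapped each other. Gli2 rose by 1.14 from P0.5 to P2 (SE 0.27, limma adjusted p = 0.00649), with an adjusted p of 0.0754 or 0.0738 when replicate 1 of P0.5 or of P2 was left out. From P2 to P7 its difference was -0.54 (limma adjusted p = 0.264), which did not pass. Gli3 was 7.87 and 3.84 at E18.5, 2.52 and 6.74 at P0.5, 8.53 and 6.86 at P2, 10.5 and 8.77 at P7, 2.66 and 3.99 at P28, and 9.67 at P56. It fell by 1.31 from P7 to P28 (SE 0.46, limma adjusted p = 0.0498), a call lost in 4 of 6 other settings and with any of 7 libraries left out.

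Ptch1 and Hhip, both also targets of the pathway, did not share the P2 peak. Ptch1 was 75.6 and 69.1 at E18.5, 47.8 and 47.2 at P0.5, 69.3 and 72.7 at P2, 62.5 and 73.9 at P7, 44.3 and 39.1 at P28, and 80.2 at P56. E18.5, P2 and P7 overlapped, while P0.5 and P28 lay below them without overlap. Ptch1 fell by 0.69 from P7 to P28 (SE 0.21, limma adjusted p = 0.0234), with an adjusted p of up to 0.113 when 1 library was left out, and it fell by 0.78 from E18.5 to P28 (SE 0.21, limma adjusted p = 0.00704). Its P0.5 to P2 difference of 0.57 did not pass (SE 0.21, limma adjusted p = 0.0698).

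Hhip was 365 and 409 at E18.5, 154 and 138 at P0.5, 182 and 183 at P2, 200 and 266 at P7, 225 and 250 at P28, and 14.6 at P56. E18.5 stood above all later stages, P7 and P28 overlapped, and the P56 library lay below every other. Hhip fell by 1.40 from E18.5 to P0.5 (SE 0.19, limma adjusted p = 5.53e-05). Its E18.5 to P28 difference was -0.70 (SE 0.19, limma adjusted p = 0.00759), with an adjusted p of up to 0.0658 when 1 library was left out.

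The co-receptor Gas1 was highest late. Its values were 5.34 and 5.12 at E18.5, 9.75 and 15.3 at P0.5, 4.98 and 6.31 at P2, 9.72 and 7.10 at P7, 26.3 and 26.7 at P28, and 144 at P56. The P28 libraries lay above all younger ones, and the P56 library lay above those. Gas1 rose by 1.56 from P7 to P28 (SE 0.34, limma adjusted p = 0.00237) and by 2.14 from E18.5 to P28 (SE 0.34, limma adjusted p = 6.28e-05). The smaller differences around birth, 1.09 from E18.5 to P0.5 (limma adjusted p = 0.0341) and -1.0 from P0.5 to P2 (limma adjusted p = 0.0461), passed, but lost the call with 3 and 7 of the 11 libraries left out in turn, with an adjusted p of up to 0.311 and 0.368, and also in 1 and 3 of 7 other settings. At the P7 to P28 step, where Ptch1 and Gli3 also moved, the fibroblast list went from 23275 to 28397 up to 45210 to 46053 and the leukocyte list from 0 to 3.41 up to 34.0 to 121. The endothelial list went from 2.92 to 5.51 up to 10.6 to 14.4, and the myofibroblast list from 249 to 307 down to 135 to 178. Their part in the result was not tested. Boc, the other co-receptor, ranged from 12.5 to 28.6 over all 11 libraries, and its overall stage test did not pass (limma adjusted p = 0.284). Smo ranged from 5.61 to 17.5 from E18.5 to P28 with replicates as far apart as 7.09 and 17.5 at P7, and its overall test did not pass either (limma adjusted p = 0.0908).

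Fibroblast Shh was read at a low level around birth. Its values were 12.4 and 6.82 at E18.5, 3.15 and 2.25 at P0.5, 0.355 and 3.57 at P2, 0 and 2.09 at P7, 0.591 and 0 at P28, and 0.134 at P56, from 60, 16, 14, 5, 2 and 1 reads per stage. Both E18.5 libraries lay above all others. It fell by 3.02 from E18.5 to P28 (SE 0.64, limma adjusted p = 0.00123). The summed epithelial markers in the same libraries went from 201 to 224 at E18.5 and 150 to 189 at P0.5 to 19.2 to 76.0 at P2, 83.5 to 118 at P7, 72.9 to 75.8 at P28 and 13.2 at P56. Epcam and Cdh1 were at 0 in both E18.5 libraries, but Cldn18, Krt19 and Nkx2-1 averaged 97.6, 81.6 and 10.2 joint CPM there. Nkx2-1 averaged 3.25 at P0.5, 0.503 at P2, 1.72 at P7 and 0.394 at P28. The part of these markers in the result was not tested.

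**Figure D3:**
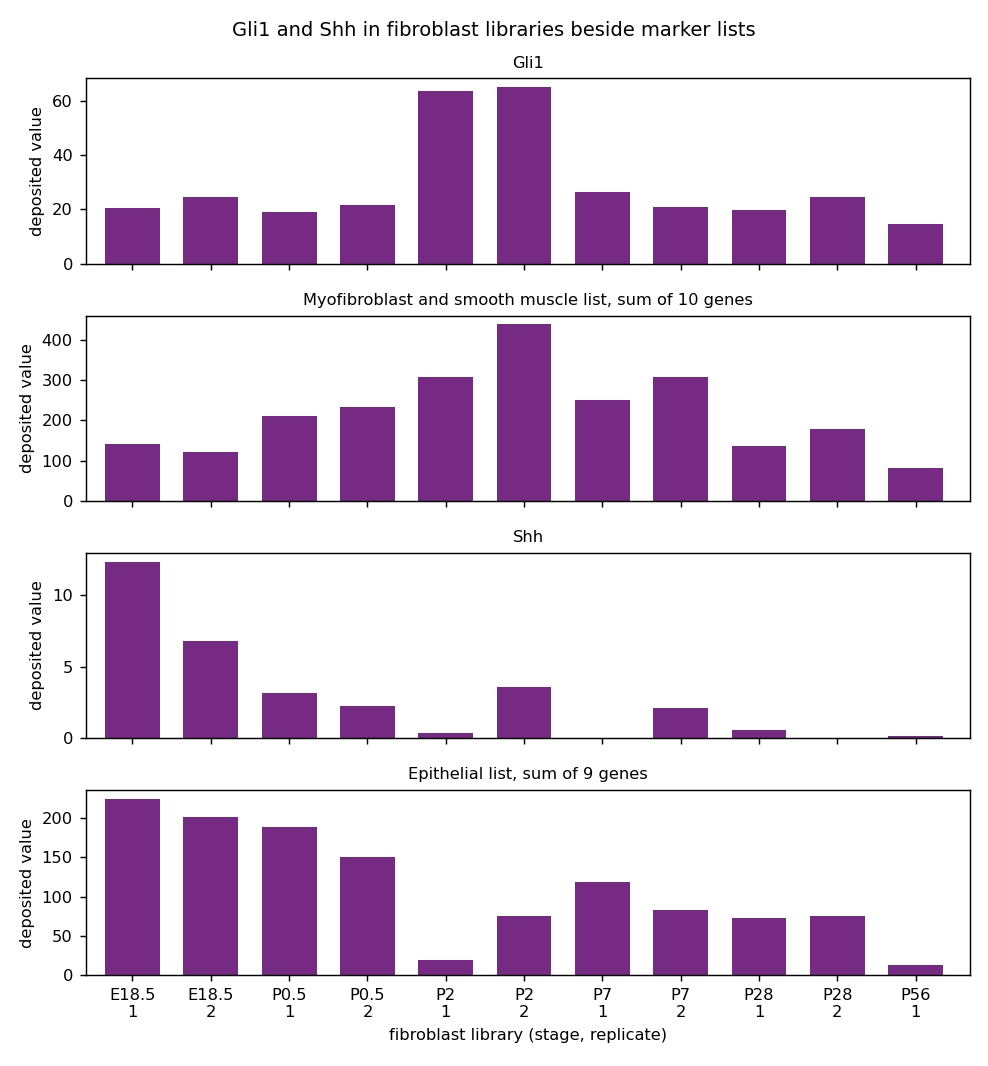
Deposited values of Gli1 and Shh in each of the 11 fibroblast libraries (bars), above the summed values of the myofibroblast and smooth muscle list and of the epithelial list in the same libraries. Gli1 is above 60 in both P2 libraries, where the myofibroblast sum is 307 and 437, and Shh is highest at E18.5, where the epithelial sum is 201 and 224.

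Read against all genes, the fibroblast counts were as follows. From E18.5 to P0.5, 1 member of 9 rose and 1 fell, where 15.4% of all genes passed, 8.05% higher and 7.34% lower. From P0.5 to P2, 2 rose and 1 fell, where 16.9% of genes passed, 9.74% higher and 7.2% lower, and the median of the members was 0.33 against 0.03 over all genes. From P2 to P7, 1 of 9 fell, where 6.64% of genes passed and 4.28% were lower. From P7 to P28, 1 rose and 2 fell, where 20.8% of genes passed, 11.3% higher and 9.49% lower. From E18.5 to P28, 1 rose and 3 fell, where 33.6% of genes passed, 18.7% higher and 14.9% lower, with a median of -0.45 for the members and 0.01 for all genes. In the overall test 6 of 9 passed, where 61.6% of genes did, so that the members' share of calls lay near the background there. Scaling to the library total moved the share of calls that were higher from 35.5% to 65.7% at the P2 to P7 step, with a median of 0.21 over all genes, and from 54.4% to 43.1% at the P7 to P28 step, with a median of -0.12. Every member call at these 2 steps kept its direction under that scaling.

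At P56, for which 1 library was at hand and is assumed to vary like the replicates of the other stages, 4 of 9 members differed from P28, where 31.2% of all genes passed, 12.2% higher and 19.1% lower. Hhip fell by 3.93 (SE 0.23, limma adjusted p = 1.61e-09), from 225 and 250 to 14.6, while its lowest value among the 10 younger libraries was 138. Gas1 rose by 2.40 (SE 0.41, limma adjusted p = 0.000216), from 26.3 and 26.7 to 144. Ptch1 rose by 0.93 (SE 0.26, limma adjusted p = 0.00976) and Smo, at 25.5 against 5.61 and 10.8 at P28, by 1.59 (SE 0.52, limma adjusted p = 0.0259), a call lost without the filter on low values and without P28 replicate 1. The median over all genes was -0.12 at this step, and 0.26 when values were scaled to the library total, where the share of calls that were higher went from 39% to 62.6%. The 4 calls kept their direction under that scaling. In the same library the fibroblast list stood at 15509 against 45210 to 46053 at P28, the mesothelial list at 202 against 409 to 491, and the myofibroblast list at 80.7 against 135 to 178, with Cnn1 and Myocd at 0. The part of these differences in the result was not tested.

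**Figure D4:**
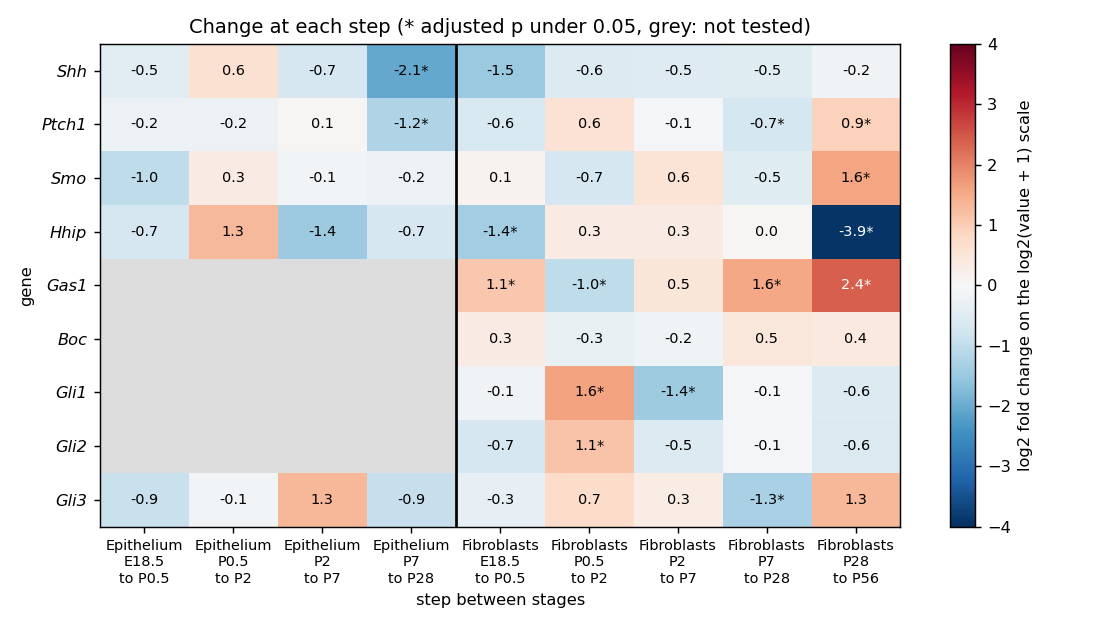
Log2 fold change of each gene at each step between neighbouring stages in epithelium (left) and fibroblasts (right), with an asterisk where the limma adjusted p was under 0.05 and grey where a gene was not tested. The called steps with the strongest colours are the P28 to P56 changes of Hhip (-3.93) and Gas1 (2.40) in fibroblasts and the P7 to P28 decrease of Shh (-2.06) in epithelium.

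Whether a gene's change from E18.5 to P28 differed between the cell types was tested as an interaction. It passed for 1 of 9 members, where 15.1% of all genes passed and 9.85% were lower. That member was Gas1, with a difference of -2.38 (SE 0.54, limma adjusted p = 0.00432). Epithelium held 3 Gas1 reads in all, so this value restates the fibroblast increase and adds no separate result. Neither edgeR (adjusted p = 0.252) nor DESeq2 (adjusted p = 0.296) called it, and the 1 member that DESeq2 called was Gli2, which had 16 epithelial reads. The interaction did not pass for Shh (0.35, SE 0.65, limma adjusted p = 0.788) or Ptch1 (-0.91, SE 0.37, limma adjusted p = 0.113), both of which were lower at P28 in each cell type.

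The profiles of the members over the 6 fibroblast stages were compared by the root mean square of their log2 differences after centring, over 6 stage means and as a description. The closest pairs were Ptch1 with Gli3, at 0.257, and Gli1 with Gli2, at 0.346. Among 4337 fibroblast genes with a mean value of at least 20, those nearest to Gli1 were Gramd1a (0.181), Ube2h (0.194), Naa15 (0.196), Nup98 (0.20) and Eif1a (0.209), where the median gene lay at 0.747. The nearest to Hhip lay farther off, from 0.311 for LOC105244000 and 0.312 for LOC102631844 to 0.384 for Stra13, with a median of 1.45. Ptch1 was closest to Fam172a (0.113) and Dnlz (0.115), with a median of 0.634. In epithelium, over 5 stages and 4401 genes, Shh was nearest to LOC105243515 (0.121), Dennd3 (0.156) and Speg (0.160), with a median of 1.01.

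Other parts of the pathway were examined as lists. The other ligands were hardly read, Dhh with 4 reads over the epithelial and 15 over the fibroblast libraries and Ihh with 27 and 26. Scube2, a secreted protein that helps release the ligand, was 46.1 and 49.5 in fibroblasts at E18.5, 24.9 and 27.4 at P2, 79.4 and 80.6 at P28 and 183 at P56, and rose by 1.19 at the last step (SE 0.28, limma adjusted p = 0.00294). It was lower in epithelium by a log2 difference of -4.66 (SE 0.16). Of the 3 tested genes of its list, 2 passed in that direction, where 29.9% of all genes did. These were Scube2, with 27 epithelial reads, and Scube3, with 18. Both passed the filter on low values through fibroblasts alone, so their values are a description.

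Among receptors beyond the members, 4 of 5 tested genes differed between the cell types, where 62.4% of all genes did. Lrp2, an endocytic receptor that binds the ligand, was 5.64 higher in epithelium on the log2 scale (SE 0.16). It had 41 reads over the fibroblast libraries and passed the filter on low values through epithelium alone, so this value is a description. Gpc3, a glypican that competes with Ptch1 for the ligand, rose by 1.76 in fibroblasts from P0.5 to P2 (SE 0.21, limma adjusted p = 1.19e-05). It was the 1 gene of 4 tested in its list to do so, where 9.74% of all genes rose.

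Of 12 tested genes for transduction in the cilium and cytoplasm, 3 rose and 2 fell in fibroblasts from E18.5 to P28, among them Kif7, a kinesin that regulates Gli proteins at the cilium tip, which fell by 1.66 (SE 0.27, limma adjusted p = 0.000104). Kif7 was 40.5 and 53.3 at E18.5, 12.7 and 15.6 at P28, and 45.4 in the single P56 library. Of 10 kinases and degradation factors of Gli proteins, 2 rose and 2 fell in fibroblasts from E18.5 to P28. Over all genes 33.6% passed at that span, 18.7% higher and 14.9% lower. The list medians were 0.10 and -0.02, against 0.01 over all genes. Between cell types, 3 of 13 transduction genes were higher in epithelium and 6 lower, and 4 of 10 kinases and degradation factors were higher and 4 lower, where 32.5% of all genes were higher and 29.9% lower. Evc, Tulp3 and Arl13b passed the filter on low values through fibroblasts alone, and Stk36 through epithelium alone. The transduction counts are therefore a description.

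Of 14 genes described as hedgehog responsive, all tested in fibroblasts, 1 rose and 1 fell from P0.5 to P2, the step at which Gli1 rose and 16.9% of all genes passed, with a list median of 0.41 against 0.03 over all genes. Ccnd2, a D-type cyclin, rose by 1.71 (SE 0.19, limma adjusted p = 6.81e-06), from 71.1 and 70.7 to 240 and 230. Tbx2, a T-box transcription factor, fell by 1.28 (SE 0.20, limma adjusted p = 0.000255), from 851 and 1051 to 444 and 341. Foxf1, a forkhead factor of the lung mesenchyme, was 7.24 and 11.6 at P0.5, 21.0 and 14.0 at P2 and 3.68 and 8.35 at P7, and fell by 1.46 at the second step (SE 0.41, limma adjusted p = 0.0373). From P2 to P7, 2 of 14 passed, both lower, where 4.28% of all genes were lower. Between the cell types, 9 of 13 tested were lower in epithelium and 3 higher, where 29.9% of all genes were lower and 32.5% higher. Among the lower ones, Foxf1, with 10 epithelial reads, and Foxf2, with 3, passed the filter on low values through fibroblasts alone. This count is therefore a description.

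Of 11 tested myofibroblast and smooth muscle genes, 2 rose and 4 fell in fibroblasts from P0.5 to P2, with a list median of -0.53 against 0.03 over all genes, of which 9.74% rose and 7.2% fell. Acta2, the smooth muscle actin, was 19.2 and 17.6 at P0.5, 129 and 143 at P2, 95.8 and 109 at P7, and 9.45 and 16.0 at P28. It rose by 2.82 from P0.5 to P2 (SE 0.26, limma adjusted p = 7.24e-07) and fell by 2.95 from P7 to P28 (SE 0.26, limma adjusted p = 1.64e-07). Myh11, the smooth muscle myosin, rose by 2.43 from P0.5 to P2 (SE 0.63, limma adjusted p = 0.0119), while Pdgfra, a receptor of alveolar fibroblasts and myofibroblast precursors, fell by 1.30 (SE 0.29, limma adjusted p = 0.00383). The summed marker list of this class was 211 to 234 at P0.5, 307 to 437 at P2 and 249 to 307 at P7. Its highest library was at P2, as for Gli1, but the lower P2 library was level with the higher P7 library. Of its genes, Acta2 and Myh11 rose from P0.5 to P2. Des fell by 1.42 (SE 0.45, limma adjusted p = 0.0353) and Tgfbi by 1.64 (SE 0.48, limma adjusted p = 0.0251). The part of this list in the Gli1 result was not tested.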

How the data were processed

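The deposited tables, 1 per library, hold a normalised signal per gene, which the authors made from tag counts. Bowtie2 2.2.5, R 3.4.0 and the build mm10 are named per the submitters' processing notes, and none of the sources used here gives the normalisation method. Each deposited signal value was a whole multiple of 1 constant per library. After division by that constant, 100% of the values above 0 came out as whole reads (tolerance 0.01). Stage comparisons were made on log2(value + 1) in limma 3.58.1 under R 4.3.3, with a trended prior variance, for genes with a value of at least 3 in at least 2 libraries, with 1 mean per stage (5 residual degrees of freedom in each cell type). Epithelium and fibroblasts were compared in 1 limma fit of 20 libraries on log2(joint CPM + 1), since their tables differ in the genes listed and in scale. Tests were two-sided, with Benjamini-Hochberg adjustment over all genes tested and a threshold of 0.05. The fits were tested on simulated data with known changes. There all genes shared 1 setting for the spread between replicates, and genes with few reads were left out. That test therefore cannot speak for members with few reads.

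Members and gene lists were chosen with earlier results of these data known. Genes of a list were named by rule, up to 4 with the smallest p among those past the threshold, and a few were singled out from these by role. The nearest profiles are the 5 genes with the smallest distance, of which some are given. Coordinates come from GENCODE vM21 and promoter windows from RefSeq. Alternatives were edgeR 4.0.16 and DESeq2 1.42.0 on the recovered reads, a pseudocount of 0.25, no filter or a minimum of 10, scaling to the library total, the replicate number as a block, and each library left out. Replicate numbers did not mark pairs by the check on shared deviations. 1 gene of the wider lists is counted in its list but not reported here by name.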

Additional observations from a re-analysis of the deposited data

Results flagged for a closer look

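The test of whether the change of Gas1 from E18.5 to P28 differed between the cell types gave -2.38 on the log2 scale as epithelium minus fibroblasts (SE 0.54, limma adjusted p = 0.00432). Epithelium held 3 Gas1 reads in all, so the value restates the fibroblast increase, and neither edgeR (adjusted p = 0.252) nor DESeq2 (adjusted p = 0.296) called it.

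Among the 18 sets of 10 libraries formed by 9 genes and 2 cell types, which each hold 5 stages, 4 epithelial sets had 1 library far from the rest. The gap to the nearest library divided by the whole range was 0.759 for Gli1 (P2 replicate 1, with 4 of 5 reads), 0.689 for Gli2 (E18.5 replicate 2, with 12 of 16 reads), 0.497 for Boc and 0.481 for Smo (E18.5 replicate 1), above the critical value of Dixon's test. Chance flags about 1 in 20 such sets where values are normally spread. Gli1, Gli2 and Boc were at 0 in 8, 6 and 4 of the 10 epithelial libraries, so that rate does not hold for them.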

How the results depend on the processing

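Of 637 alternative values for the 31 member fold changes that passed, 596 kept direction and call, 41 kept direction only and 0 reversed, and 22 of the 31 held throughout. The 31 include the cell type differences of Gli1, Gli2, Gas1 and Boc, which had to differ. Each of these was kept in 20 of 20 fits with a library left out and in 7 of 7 other settings. They raise the tally without adding to it as a result. The Gas1 interaction, which restates the fibroblast increase, is also among the 31. Scaling to the library total called 1 member (Shh) in epithelium from P0.5 to P2 in place of 0. DESeq2 called 1 (Shh) from P2 to P7 in place of 0. From P7 to P28, no filter and DESeq2 each called 1 (Shh) in place of 2, and in the interaction edgeR called 0 in place of 1. With 1 library left out in turn, the epithelial counts were 1 to 2 from P7 to P28 and 1 to 3 at any stage, the fibroblast counts were 1 to 3 from E18.5 to P0.5, 1 to 3 from P0.5 to P2 and 1 to 3 from P7 to P28, and the interaction gave 1 to 2. The cause of these differences was not tested.

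Same-numbered libraries deviated together with correlations of -0.06 to 0.07 in epithelium and -0.04 to 0.04 in fibroblasts, none of 10 pairs above 0.1 in either. With the replicate number as a block, the members called went from 3 to 2 in fibroblasts from P0.5 to P2 and from P7 to P28 and from 6 to 7 over any stage, and stayed the same in number in the other 12 comparisons. Without the filter the count of all genes called went from 1071 to 578 in epithelium from P0.5 to P2 and from 451 to 211 from P2 to P7, and in fibroblasts from 1839 to 1113, from 2025 to 1254 and from 794 to 359 at the first 3 steps. With 1 library left out, the epithelial counts of all genes called went as low as 616 of 1740, 109 of 1071, 140 of 451 and 406 of 884 at the 4 steps and 1838 of 3020 from E18.5 to P28, and the fibroblast counts as low as 676 of 1839, 789 of 2025, 262 of 794 and 1548 of 2491. In the interaction, scaling to the library total moved the share of calls that were higher from 34.7% to 49.4%. Depth limits the epithelial values of Gli1, Gli2, Gas1 and Boc, which rest on 3 to 16 reads.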
